A study of Mus musculus with 12 samples.

Results

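The plasminogen activation and coagulation genes are 8 genes chosen by name from the deposited count tables of a mouse supernatant transfer experiment: Plau, Plat, Plaur, Serpine2, F3, Tfpi, Tfpi2 and Thbd. They were matched by symbol to gene identifiers and make up 8 of the 17335 genes in either table. All 8 had a row in the PSC4 table and 7 in the KPC4 table, where Tfpi2 was not analysed here. The low-count filter kept 7 of the 8 in each line, the exception in PSC4 being Tfpi2. PSC4 is a mouse pancreatic stellate cell line, a stromal cell type that can become a matrix-producing fibroblast, and KPC4 is a mouse pancreatic adenocarcinoma line. Whether either is 1 clone is not given in the sources used here.

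In the first step KPC4 cells received vehicle or 10 µM gemcitabine, a nucleoside analogue chemotherapy, for 6 h. They were then washed and conditioned starvation medium for 14 h; the vehicle medium is named Control-SU and the gemcitabine medium Gem-SU. PSC4 cells were sequenced after 24 h in either medium. In the second step PSC4 cells spent 6 h in either of those media, and after a wash conditioned new starvation medium for 18 h. KPC4 cells then spent 24 h in this stellate medium, named Control-PSC-SU or Gem-PSC-SU by its origin, before sequencing. All 4 groups thus received conditioned medium, and each had 3 biological replicates. Total counts per library lay between 26354328 and 38138356. Each line is a bulk culture, in which fewer cells of a kind and less RNA per cell cannot be told apart.

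Plasminogen, a circulating zymogen, is cut to the protease plasmin by the urokinase activator encoded by Plau and the tissue-type activator encoded by Plat. The urokinase receptor encoded by Plaur holds urokinase on the cell surface, and serpins such as that of Serpine2 block the activators. Coagulation starts when tissue factor, encoded by F3, binds factor VII, and is held back by the inhibitor of Tfpi and by thrombomodulin, the thrombin receptor encoded by Thbd that turns thrombin towards activation of protein C. In pancreatic cancer, tumour cell tissue factor and the urokinase system are known for their links to thrombosis and invasion.

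The lines were checked against their defining markers. Of 12 stellate cell or fibroblast markers, 11 were measured in PSC4, with a summed level of 8099 to 8775 CPM with Control-SU. CPM is the count scaled to a common library total, with TMM factors for composition. Of 10 epithelial tumour markers, all 10 were measured in KPC4, summing to 6217 to 7557 CPM with Control-PSC-SU against 34.8 to 40.9 CPM with Control-SU in PSC4. Lum was not analysed here in either line. Endothelial markers come from a cell type that makes much Thbd, Tfpi and Plat. In PSC4 they summed to 1.58 to 2.86 CPM with Control-SU and 3.43 to 5.52 CPM with Gem-SU. In KPC4 they summed to 0.786 to 1.71 CPM with Control-PSC-SU and 1.79 to 3.77 CPM with Gem-PSC-SU. Megakaryocyte or platelet markers summed to 22.6 to 25.7 CPM with Control-SU and 11.5 to 18.8 CPM with Gem-SU in PSC4. In KPC4 they reached at most 1.81 CPM. Leukocyte markers reached at most 5.85 CPM in PSC4 and 2.11 CPM in KPC4. Hepatocyte markers were not analysed here in PSC4. In KPC4 they summed to 2.30 to 8.47 CPM with Control-PSC-SU and 4.57 to 17.7 CPM with Gem-PSC-SU.

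Promoter sequence was matched in RefSeq (build GRCm38.p6) for 5 of the 8 members, in 300-base windows from 250 bases before to 50 after each annotated start. No window was found for Plau, Plat or Thbd. The windows of Plaur, F3 and Tfpi are shown because the KPC4 values of Plaur and F3 were higher with Gem-PSC-SU while those of Tfpi were not, as described further on. In PSC4, however, F3 was lower with Gem-SU. Printed are the 250 bases upstream of the start, 5′ to 3′ on the gene's strand, with capitals at the matched motif letters on either strand. They lie at chr7:24462233-24462482 (plus strand) for Plaur and chr3:121723287-121723536 (plus strand) for F3. The 2 Tfpi windows lie on the minus strand at chr2:84476760-84477009, called upper by its coordinates, and chr2:84474175-84474424, called lower.
Plaur: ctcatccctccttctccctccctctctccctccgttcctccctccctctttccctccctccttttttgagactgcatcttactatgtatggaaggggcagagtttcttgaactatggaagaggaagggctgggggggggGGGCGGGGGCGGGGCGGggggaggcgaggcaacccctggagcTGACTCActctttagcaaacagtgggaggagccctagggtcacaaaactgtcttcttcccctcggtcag
F3: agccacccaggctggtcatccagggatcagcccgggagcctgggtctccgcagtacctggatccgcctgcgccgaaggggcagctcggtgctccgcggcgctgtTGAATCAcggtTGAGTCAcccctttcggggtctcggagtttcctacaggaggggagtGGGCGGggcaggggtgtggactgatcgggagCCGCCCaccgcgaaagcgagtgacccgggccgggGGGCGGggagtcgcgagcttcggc
Tfpi upper: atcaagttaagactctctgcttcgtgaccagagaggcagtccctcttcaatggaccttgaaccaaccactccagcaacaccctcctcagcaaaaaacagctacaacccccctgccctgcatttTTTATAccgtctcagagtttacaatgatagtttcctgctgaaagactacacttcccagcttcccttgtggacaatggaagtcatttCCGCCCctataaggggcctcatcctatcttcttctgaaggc
Tfpi lower: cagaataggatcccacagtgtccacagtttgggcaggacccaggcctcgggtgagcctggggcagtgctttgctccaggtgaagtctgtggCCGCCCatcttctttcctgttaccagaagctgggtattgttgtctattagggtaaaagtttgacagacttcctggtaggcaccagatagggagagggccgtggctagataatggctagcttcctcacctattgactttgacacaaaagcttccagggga

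The Plaur window held the AP-1 letters TGANTCA as TGACTCA, with the first letter at -69 from the start. The F3 window held them at 2 places, as TGAATCA at -146 and TGAGTCA at -135. Neither Tfpi window nor that of Serpine2 held them, while 1 of the 3 Tfpi2 windows did, at -77. Among all 32851 promoter windows of this length, 7.81% held the AP-1 letters. The Sp1 or Klf letters GGGCGG stood at 3 places in the Plaur window, starting at -111, -105 and -100, the last 2 sharing a letter, and at 3 places in that of F3. Each Tfpi window held them at 1 place and the Serpine2 window at 6, and 35.7% of all windows held them. The other motifs searched were the cyclic AMP element with the letters TGACGTCA and the Egr motif with GCGTGGGCG. The E-box was searched as CACGTG. The TATA box was searched as TATAAA, and the TEAD motif as CATTCC. No match of these overlaps an AP-1 match. Among these 5, a TATA box match stood in the F3 window and in the upper Tfpi window, and an E-box match in the upper Tfpi window, those of F3 and the E-box lying after the start. These matches are a description of letters in the reference and no measurement in these cells.

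The first comparison asks how stellate cells respond to medium of tumour cells that had met gemcitabine, against that of vehicle controls. Both plasminogen activators and the urokinase receptor rose with Gem-SU, while tissue factor and both anticoagulant genes, Tfpi and Thbd, fell. Thus 3 of the 7 tested members were higher and 3 lower at the threshold of 0.05, on p-values of the edgeR quasi-likelihood test after Benjamini-Hochberg adjustment. The groups of these 6 did not overlap, which held for 56.7% of all genes. Of all 13347 genes tested, 46.3% were called, 24.3% higher and 22.0% lower. The median log2 fold change was 0.75 over the 7 members, which is the value of Serpine2, and 0.00 over all genes. Serpine2 was not called, and with 3 members higher and 3 lower this median shows no common direction.

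Plau measured 16.2, 12.9 and 12.98 CPM in PSC4 replicates 1, 2 and 3 with Control-SU and 58.9, 65.1 and 59.4 CPM with Gem-SU. All Gem-SU libraries lay far above all controls, and the spread within each group was small. The rise from 14.0 CPM ± 1.92 to 61.1 CPM ± 3.47 (SD, n = 3 each) was 4.5-fold, on the log2 scale 2.17 ± 0.16 (SE; adjusted p = 5.98e-05 by edgeR).

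Plaur, the receptor of urokinase, measured 9.06, 6.504 and 5.48 CPM with Control-SU and 37.1, 30.7 and 28.5 CPM with Gem-SU in PSC4. The groups did not overlap, and replicate 1 was highest in both. The rise was 4.72-fold, on the log2 scale 2.24 ± 0.23 (SE; adjusted p = 2.20e-04 by edgeR).

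Plat, the tissue-type activator, measured 161, 81.7 and 89.1 CPM with Control-SU and 442, 305 and 316 CPM with Gem-SU in PSC4. Replicate 1 was again the highest of each group, and the lowest Gem-SU library was above the highest control. The rise from 111 CPM ± 43.8 to 354 CPM ± 76.3 (SD, n = 3 each) was 3.31-fold, on the log2 scale 1.73 ± 0.28 (SE; adjusted p = 0.00163 by edgeR).

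Serpine2, a serpin that inhibits thrombin, urokinase and plasmin, was low in PSC4, with 31, 44 and 52 counts with Control-SU and 80, 37 and 103 counts with Gem-SU. These are 0.906, 1.38 and 1.71 CPM against 2.02, 1.09 and 3.39 CPM, and the groups overlapped. Its log2 change of 0.75 ± 0.49 (SE) did not pass (adjusted p = 0.241 by edgeR). Tfpi2, an inhibitor of plasmin and other proteases, had 5, 0 and 1 counts with Control-SU and 0, 1 and 7 with Gem-SU in PSC4, too few to test. No difference in Tfpi2 was detectable at this depth.

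F3, which encodes tissue factor, measured 71.5, 51.8 and 44.0 CPM with Control-SU and 41.6, 22.8 and 23.4 CPM with Gem-SU in PSC4. The highest Gem-SU library, replicate 1, lay just under the lowest control. The fall was 1.84-fold, on the log2 scale -0.88 ± 0.28 (SE; adjusted p = 0.0300 by edgeR). This call was lost without Control-SU replicate 1 (log2 fold change -0.67, adjusted p = 0.0977 by edgeR), without Gem-SU replicate 2 (-0.72, adjusted p = 0.117) and without Gem-SU replicate 3 (-0.74, adjusted p = 0.0877).

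Tfpi, which encodes the inhibitor of the tissue factor complex, measured 23.1, 31.2 and 20.9 CPM with Control-SU and 14.9, 15.4 and 14.0 CPM with Gem-SU in PSC4. The Gem-SU libraries lay close together and under all controls. The fall was 1.64-fold, on the log2 scale -0.72 ± 0.20 (SE; adjusted p = 0.0180 by edgeR). Without Gem-SU replicate 2 the call was lost (log2 fold change -0.74, adjusted p = 0.0609 by edgeR), and likewise without Gem-SU replicate 3 (-0.68, adjusted p = 0.0566).

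Thbd, which encodes thrombomodulin, had the highest level of all members per kilobase of the longest coding transcript in control PSC4 cells. It measured 455, 253 and 357 CPM with Control-SU and 169, 136 and 132 CPM with Gem-SU. All Gem-SU libraries lay under all controls, whose own spread was wide. The fall from 355 CPM ± 101 to 146 CPM ± 20.03 (SD, n = 3 each) was 2.36-fold, on the log2 scale -1.24 ± 0.23 (SE; adjusted p = 0.00268 by edgeR).

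Stellate cell markers also differed in PSC4 with Gem-SU. Of the 11 tested, 8 fell and 0 rose, where 22.0% of all genes were called lower and 24.3% higher. The summed level of the stellate markers was 2385 to 3559 CPM with Gem-SU. The 7 epithelial markers measured in PSC4 summed to 56.3 to 64.1 CPM with Gem-SU, and of the 5 tested 2 rose and 1 fell. Of 3 endothelial markers tested, 1 rose, and of 2 megakaryocyte or platelet markers tested, 1 fell. The part of these marker genes in the members' response was not tested.

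**Figure D1:**
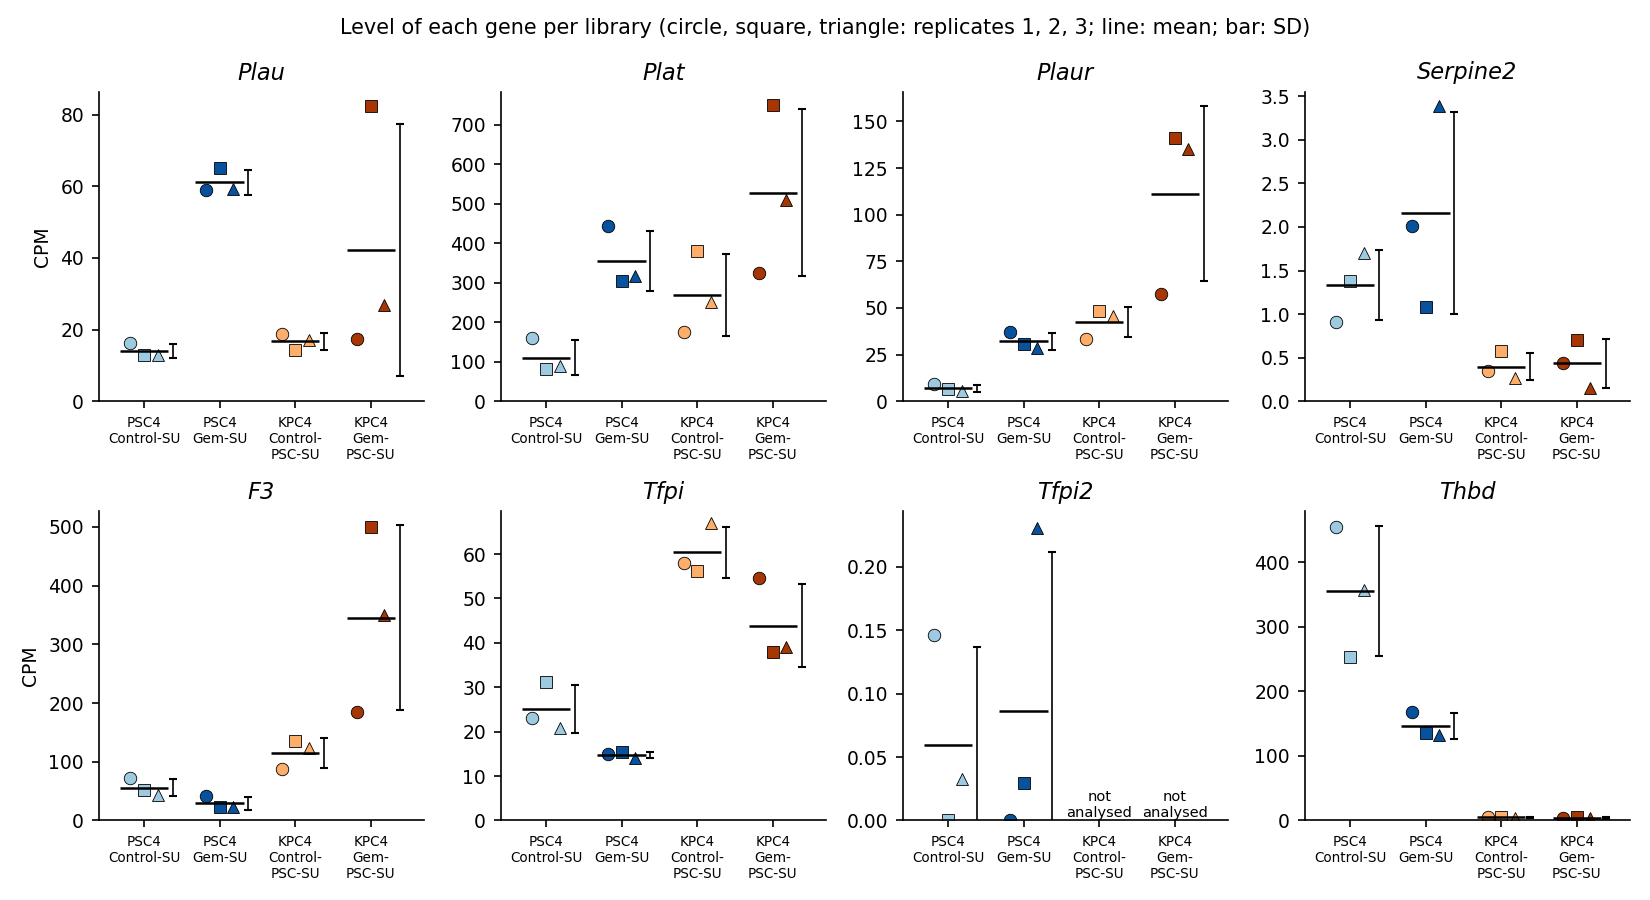
CPM of each gene (y axis, starting at 0) in each library of the 4 groups (x axis), with symbols for the replicate number, a line at the mean and a bar for the SD. In PSC4 the Gem-SU libraries of Plau (58.9 to 65.1 CPM) lie above all controls (12.9 to 16.2 CPM), and in KPC4 the Gem-PSC-SU libraries spread widely.

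The second comparison asks how tumour cells respond to medium of stellate cells that had met Gem-SU. Tissue factor and the urokinase receptor had higher values in every Gem-PSC-SU library than in any control, by 3.00-fold and 2.62-fold. Groups did not overlap, in either direction, for 22.6% of all genes tested. Yet 0 of the 7 tested members passed in edgeR's quasi-likelihood test. Nor did any of the 13236 genes tested, so that 0% were called, while 17.0% had an unadjusted p under 0.05 (2251 genes), as did 5 of the 7 members. DESeq2 called 823 genes, 6.22% of those tested, and 2 of the members, F3 and Plaur. KPC4 libraries of one number deviated together from their group means, and with that number as a block 1171 genes were called (8.85%), and 3 of the 7 members, all higher (6.07% of all genes). The median log2 fold change without the block was 0.98 over the 7 members, which is the value of Plat, and -0.02 over all genes.

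F3 measured 86.8, 135 and 124 CPM in KPC4 replicates 1, 2 and 3 with Control-PSC-SU and 185, 500 and 351 CPM with Gem-PSC-SU. Replicate 1 was lowest and replicate 2 highest in both groups, and the groups did not overlap. The log2 fold change was 1.59 ± 0.35 (SE; adjusted p = 0.120 by edgeR). With the replicate block F3 passed, at 1.49 ± 0.18 (SE; adjusted p = 0.00356 by edgeR). Without the block and with 1 library left out it passed in 1 of 6 fits, that without Gem-PSC-SU replicate 1 (1.89, adjusted p = 0.00617 by edgeR), and in the others adjusted p reached 0.509. The authors' deposited table gives F3 a log2 fold change of 1.58 with an adjusted p of 0.00128.

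Plaur measured 33.4, 48.6 and 45.6 CPM with Control-PSC-SU and 57.2, 141 and 135 CPM with Gem-PSC-SU in KPC4. Replicate 1 was lowest in both groups, and its Gem-PSC-SU library was nearer to the controls than to the other Gem-PSC-SU libraries. The log2 fold change of 1.39 (standard error 0.34) did not pass (adjusted p = 0.129 by edgeR). With the replicate block it was 1.30 ± 0.19 (SE) and passed (adjusted p = 0.00916 by edgeR). Without the block it passed in 1 of the 6 fits with a library left out, again that without Gem-PSC-SU replicate 1 (1.71, adjusted p = 0.00406 by edgeR), and adjusted p reached 0.509 in the others. In the authors' deposited table Plaur has a log2 fold change of 1.37 and an adjusted p of 0.00215.

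Plat measured 174, 381 and 251 CPM with Control-PSC-SU and 326, 748 and 510 CPM with Gem-PSC-SU in KPC4, so that the groups overlapped. Within each replicate number the values moved by nearly the same amount, with log2 differences of 0.90, 0.97 and 1.02. Without the block the log2 change was 0.98 ± 0.36 (SE; adjusted p = 0.228 by edgeR). With the replicate block it was 0.96 ± 0.12 (SE; adjusted p = 0.00397 by edgeR), and Plat was called. The authors' deposited table gives Plat 0.97 with an adjusted p of 0.113.

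Plau was far higher in 1 KPC4 library than in the other 5. It measured 18.8, 14.3 and 17.0 CPM with Control-PSC-SU and 17.5, 82.6 and 26.9 CPM with Gem-PSC-SU. Replicate 2 stood far above the rest and replicate 1 lay within the controls. The log2 fold change was 1.35 ± 0.52 (SE; adjusted p = 0.244 by edgeR), and 1.01 ± 0.58 (SE) with the replicate block (adjusted p = 0.311 by edgeR). Without Gem-PSC-SU replicate 2 it was 0.39, and without Gem-PSC-SU replicate 1 it was 1.73 and passed narrowly (adjusted p = 0.0493 by edgeR). In the authors' deposited table Plau has 1.33 with an adjusted p of 0.0901.

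Tfpi measured 58.0, 56.1 and 67.0 CPM with Control-PSC-SU and 54.6, 37.9 and 39.1 CPM with Gem-PSC-SU in KPC4. All Gem-PSC-SU libraries lay under all controls, replicate 1 only just. The log2 fold change was -0.47 ± 0.20 (SE) and did not pass without the block (adjusted p = 0.284 by edgeR) or with it (adjusted p = 0.108 by edgeR). F3, Plaur and Tfpi were the 3 of 7 members whose KPC4 groups did not overlap, as was the case for 22.6% of all genes tested.

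Thbd was low in KPC4, with 4.75, 5.95 and 4.32 CPM with Control-PSC-SU and 3.41, 5.27 and 3.38 CPM with Gem-PSC-SU. The groups overlapped, and the log2 fold change was -0.31 ± 0.31 (SE; adjusted p = 0.630 by edgeR). Serpine2 had 12, 19 and 8 counts with Control-PSC-SU and 12, 23 and 4 with Gem-PSC-SU in KPC4, with overlap. Its log2 fold change was 0.14 ± 0.71 (SE; adjusted p = 0.935 by edgeR).

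The epithelial markers of KPC4 summed to 6084 to 7747 CPM with Gem-PSC-SU, mostly from Krt8, Krt18 and Krt19, and 0 of the 10 passed (edgeR), with a median log2 difference of -0.09. Elf3, a low member of that list, measured 13.6 to 24.9 CPM with Control-PSC-SU and 40.6 to 54.5 CPM with Gem-PSC-SU, without overlap. The 7 stellate markers measured in KPC4 summed to 2464 to 2809 CPM with Control-PSC-SU and 1828 to 2271 CPM with Gem-PSC-SU. Nearly all of this was Vim, at 2437 to 2775 and 1811 to 2237 CPM. Col3a1 was at 18.4 to 26.2 and 10.6 to 24.4 CPM, and Col1a1 at 6.24 to 11.1 and 4.45 to 7.80 CPM. Acta2, Col1a2, Fap and Pdgfra were each at most 1.06 CPM in every KPC4 library. The part of these markers in the response was not tested.

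**Figure D2:**
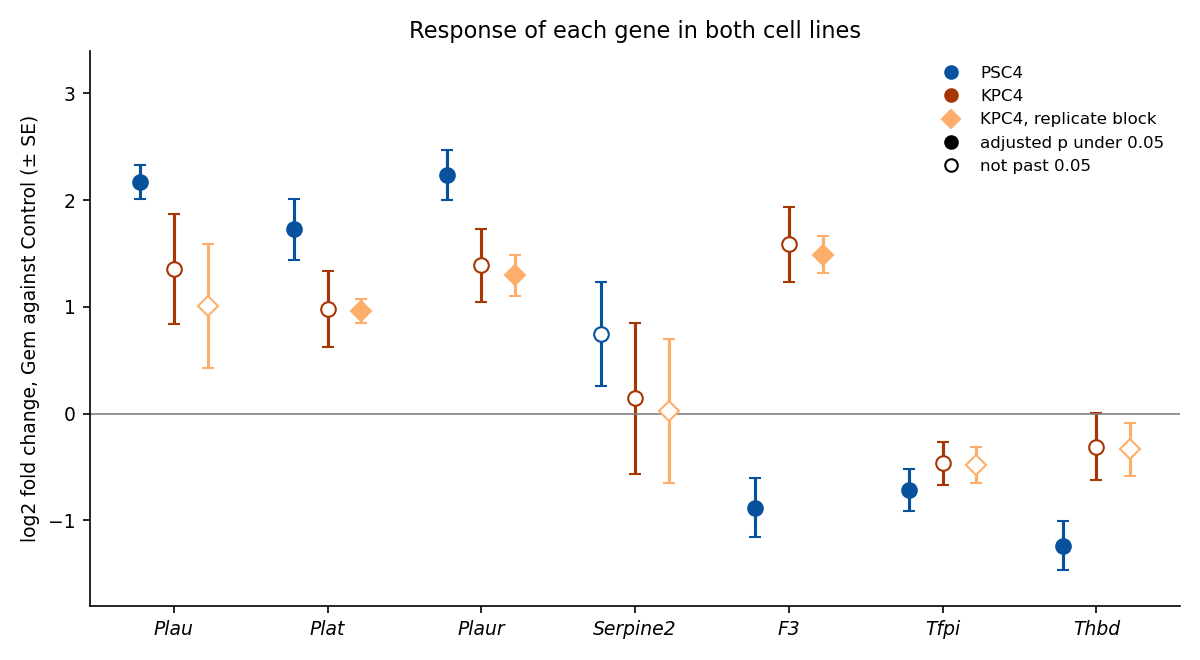
Log2 fold change of Gem against Control (y axis) with its standard error for the 7 tested genes (x axis) in PSC4 and in KPC4, the latter also with the replicate number as a block; filled symbols passed an adjusted p of 0.05. F3 lies at -0.88 in PSC4 and at 1.59 in KPC4.

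**Figure D3:**
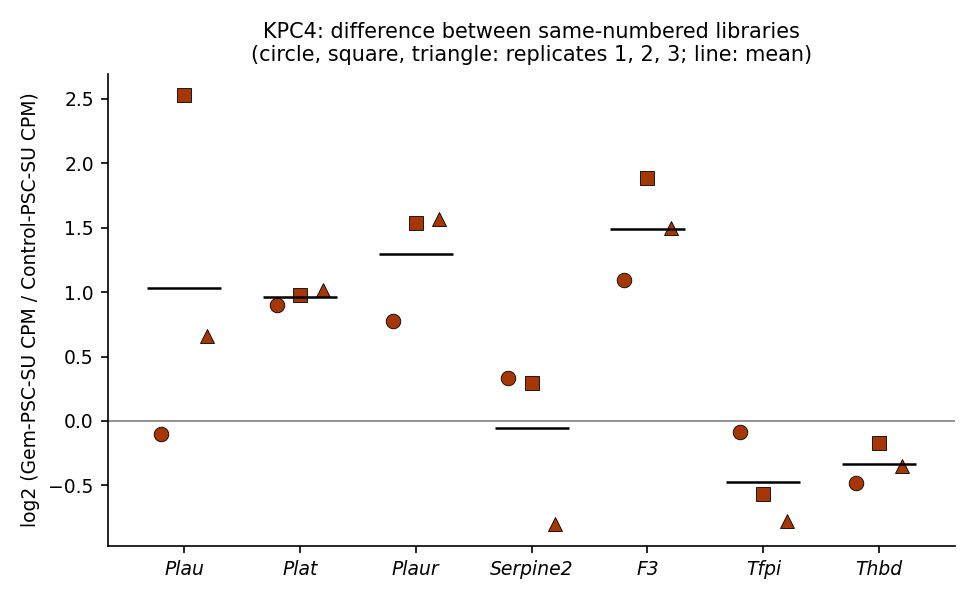
Log2 ratio of the Gem-PSC-SU to the same-numbered Control-PSC-SU library of KPC4 (y axis) for the 7 tested genes (x axis), with symbols for the replicate number and a line at the mean. The 3 values of Plat lie between 0.90 and 1.02, while those of Plau run from -0.10 to 2.53.

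Whether the response differed between the lines was tested as an interaction in one fit of all 12 libraries, in which line and step of the transfer cannot be told apart. Of the 7 members tested, 1 passed, with a negative difference, against 9.85% of 13632 genes (4.75% positive, 5.10% negative). This was F3, which fell in PSC4 and had higher values in KPC4. The difference, PSC4 minus KPC4, was -2.51 on the log2 scale with a standard error of 0.49 (adjusted p = 0.00707 by edgeR). It passed in all 12 fits that each left out 1 library (edgeR quasi-likelihood, adjusted p from 0.00159 to 0.0258). DESeq2 called 2 members, F3 and Thbd, and 15.8% of all genes.

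The difference was -0.97 ± 0.34 (SE) for Thbd and did not pass in this fit (adjusted p = 0.0899 by edgeR). For the activation genes it was 0.78 ± 0.58 (SE) for Plau, 0.71 ± 0.50 for Plat and 0.80 ± 0.43 for Plaur, none of which passed in this fit (adjusted p = 0.426, 0.397 and 0.261 by edgeR). Without KPC4 Gem-PSC-SU replicate 2 that of Plau was 1.71 and passed (adjusted p = 0.00385 by edgeR). Tfpi differed by -0.30 ± 0.28 and Serpine2 by 0.56 ± 0.87 (SE), neither of which passed (adjusted p = 0.542 and 0.723 by edgeR).

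Levels in the control groups were then set side by side, although line, recipient medium and count table cannot be told apart in this comparison. Of the 7 members, 2 were higher and 4 lower in PSC4 than in KPC4, where 42.9% of all genes were called, 22.3% higher and 20.6% lower. Thbd was 70.8-fold higher in PSC4, a log2 difference of 6.15 ± 0.29 (SE; adjusted p = 2.86e-09 by edgeR). Plaur was 6.05-fold lower in PSC4 (log2 difference -2.60, standard error 0.32, adjusted p = 1.84e-05 by edgeR). Plat and Tfpi were 2.43-fold and 2.41-fold lower in PSC4 (adjusted p = 0.00995 and 1.66e-04 by edgeR). F3 was 2.07-fold lower and Serpine2 3.32-fold higher (adjusted p = 0.0234 and 0.0373 by edgeR).

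Some of these calls did not hold in every fit that left out 1 library. Plat lost its call without KPC4 Control-PSC-SU replicate 2 (log2 difference -0.95, adjusted p = 0.0533 by edgeR). F3 lost it without PSC4 Control-SU replicate 2 or 3 or KPC4 Control-PSC-SU replicate 2 or 3 (adjusted p = 0.0595, 0.0762, 0.0738 and 0.0639 by edgeR). Serpine2 lost it without PSC4 Control-SU replicate 2 or 3 or KPC4 Control-PSC-SU replicate 1 or 3 (adjusted p = 0.0790, 0.126, 0.116 and 0.124 by edgeR). Plau did not differ beyond its error, at a log2 difference of -0.25 ± 0.41 (SE; adjusted p = 0.657 by edgeR).

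Over all 4 groups, mean CPM rose for Thbd from KPC4 Gem-PSC-SU and KPC4 Control-PSC-SU, whose ranges overlapped, to PSC4 Gem-SU and then PSC4 Control-SU. For F3 the order was PSC4 Gem-SU, PSC4 Control-SU, KPC4 Control-PSC-SU and KPC4 Gem-PSC-SU, with no overlap between neighbours. For Tfpi it was PSC4 Gem-SU, PSC4 Control-SU, KPC4 Gem-PSC-SU and KPC4 Control-PSC-SU, again with no overlap. Plaur ran from PSC4 Control-SU over PSC4 Gem-SU and KPC4 Control-PSC-SU, which overlapped, to KPC4 Gem-PSC-SU. Plat had the same lowest and highest group by mean as Plaur, with KPC4 Control-PSC-SU and then PSC4 Gem-SU between them. For Plat KPC4 Control-PSC-SU overlapped PSC4 Gem-SU, which also overlapped KPC4 Gem-PSC-SU. For Plau every pair of neighbours overlapped, from PSC4 Control-SU over KPC4 Control-PSC-SU and KPC4 Gem-PSC-SU to PSC4 Gem-SU. Serpine2 was lower in both KPC4 groups than in both PSC4 groups, and within each line its groups overlapped.

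Levels per kilobase of the longest coding transcript were set side by side between genes. Which transcript was expressed was not checked, and whether the counts already allow for length is not known, so the order is approximate. In control PSC4 cells Thbd was at 95.4 ± 27.2 CPM per kilobase, Plat at 43.8 ± 17.4, F3 at 29.8 ± 7.57 and Tfpi at 6.32 ± 1.37 (SD, n = 3). Plau and Plaur lay near Tfpi at 5.99 ± 0.818 and 4.66 ± 1.23, and Serpine2 at 0.602 ± 0.182. In control KPC4 cells Plat was highest at 107 ± 41.3 CPM per kilobase, followed by F3 at 61.6 ± 13.5, Plaur at 28.2 ± 5.34 and Tfpi at 15.2 ± 1.47, with Thbd at 1.34 ± 0.227 (SD, n = 3). In control cells of both lines the mean of Plat thus exceeded that of Plau per length.

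Pairs of members were compared as ratios of counts within a library, which do not depend on how libraries are scaled. These ratios were chosen after the values had been seen, and with 3 libraries against 3 the smallest p an exact permutation test can give is 0.1. For the trigger of coagulation over its inhibitor, F3 over Tfpi, the PSC4 ratios were 3.10, 1.66 and 2.11 with Control-SU and 2.79, 1.48 and 1.67 with Gem-SU. Both genes fell, and the ratios overlapped (log2 difference -0.22, exact permutation p = 0.6, two-sided). In KPC4 the F3 over Tfpi ratios were 1.497, 2.41 and 1.85 with Control-PSC-SU and 3.39, 13.2 and 8.98 with Gem-PSC-SU. All Gem-PSC-SU ratios lay above all controls, with a log2 difference of 1.97 (exact permutation p = 0.1, two-sided, 0.25 adjusted over the 10 ratio tests computed, of which 6 are given here).

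Thbd over F3, the anticoagulant receptor over the trigger, gave PSC4 ratios of 6.37, 4.88 and 8.12 with Control-SU and 4.06, 5.96 and 5.64 with Gem-SU, which overlapped. In KPC4 the ratios were 0.0547, 0.0441 and 0.0348 with Control-PSC-SU and 0.0184, 0.0106 and 0.00965 with Gem-PSC-SU. All Gem-PSC-SU ratios lay under all controls (log2 difference -1.83, exact permutation p = 0.1, two-sided, 0.25 adjusted over 10 tests).

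Plau over Plat, urokinase over the tissue-type activator, gave PSC4 ratios of 0.101, 0.158 and 0.146 with Control-SU and 0.133, 0.214 and 0.188 with Gem-SU. Both activators rose, and the ratios overlapped (log2 difference 0.40, exact permutation p = 0.3, two-sided, 0.571 adjusted over 10 tests). In KPC4 the ratios were 0.108, 0.0375 and 0.0677 with Control-PSC-SU and 0.0538, 0.110 and 0.0527 with Gem-PSC-SU, again with overlap (log2 difference 0.06, exact permutation p = 0.9, two-sided, 0.9 adjusted over 10 tests).

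**Figure D4:**
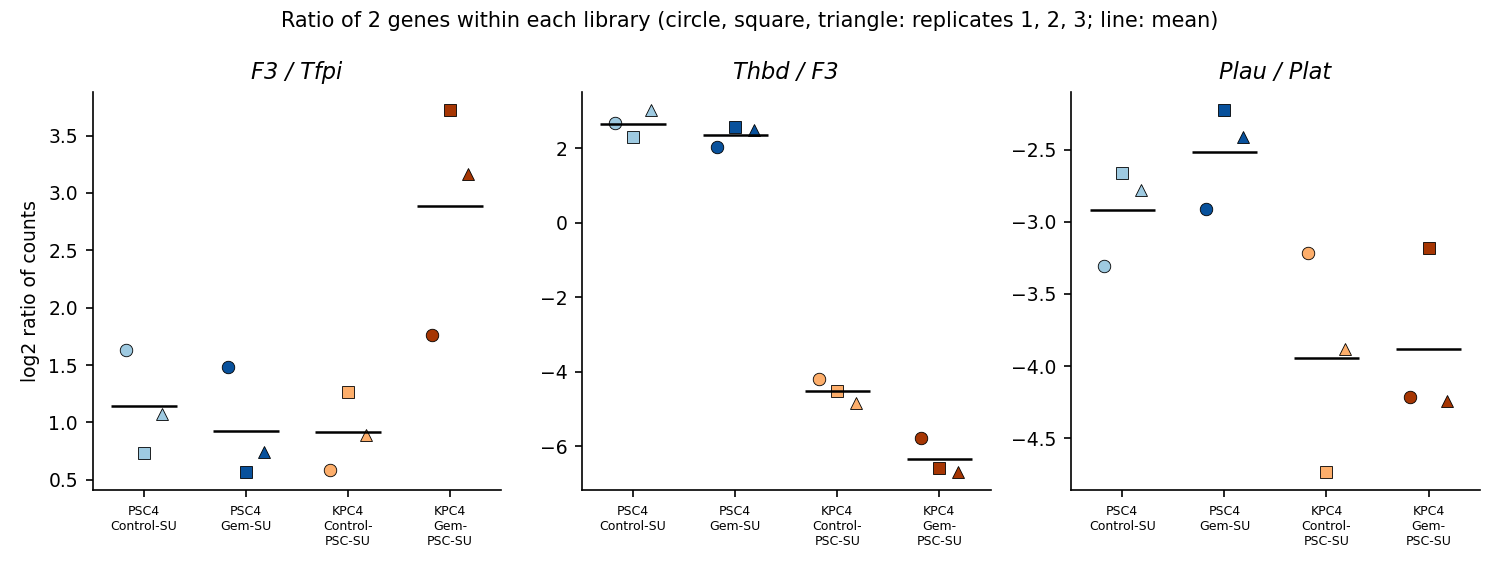
Log2 ratio of the counts of 2 genes within each library (y axis) for the 4 groups (x axis), with symbols for the replicate number and a line at the mean. For F3 over Tfpi the KPC4 Gem-PSC-SU libraries lie above all other groups' means, and for Plau over Plat the groups of each line overlap.

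Other genes of the plasminogen pathway were read from 23 listed genes, of which 17 were tested in PSC4. There 2 rose and 7 fell, where 24.3% and 22.0% of all genes did. The median log2 fold change was -0.28. The serpins of Serpinb2 and Serpini1, inhibitors of urokinase and of tissue-type activator, rose by 1.71 and 1.27 on the log2 scale (adjusted p = 0.0359 and 9.83e-04 by edgeR). Serpinb2 was low, with 5 to 19 counts in controls and 38 to 46 with Gem-SU. The annexin complex that binds plasminogen and tissue-type activator at the cell surface fell in both parts, S100a10 by 0.81 and Anxa2 by 0.62 on the log2 scale (adjusted p = 0.0203 and 0.0470 by edgeR). Also lower were Itgb3 (-0.85), Serpinb6a (-0.92), Vldlr (-0.97), a clearance receptor for urokinase-inhibitor complexes, Serpinb8 (-1.22) and Hgf (-1.34), a growth factor related to plasminogen.

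In KPC4 15 genes of that list were tested and 0 passed (edgeR quasi-likelihood), where 0% of all genes did. Of the 15, 1 had an unadjusted p under 0.05, namely Eno1, while 17.0% of all genes tested did. Serpinb2, singled out after its values were seen, had 24 counts in Gem-PSC-SU replicate 2, the library with high Plau, and 0 in the other KPC4 libraries. The median log2 fold change was -0.07. With the replicate block 1 was called, where 8.85% of all genes were. This was Eno1, a glycolytic enzyme that also binds plasminogen, which fell by 0.54 on the log2 scale (adjusted p = 0.0389 by edgeR). In the interaction fit, where 9.85% of all genes passed, 3 of 18 did, namely Serpini1 (1.41), Serpinb6a (-0.81) and S100a10 (-1.11).

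Of 36 other coagulation genes, 16 were tested in PSC4, of which 1 rose and 5 fell, so that 6 of 16 were called where 46.3% of all genes were. The median log2 fold change was -0.52. F8, the gene of factor VIII, was the one that rose, by 0.96 (adjusted p = 0.0413 by edgeR). Tgm2, a transglutaminase that crosslinks proteins, fell from 253, 242 and 272 CPM to 89.9, 53.5 and 45.3 CPM, a log2 fold change of -1.98 (adjusted p = 5.21e-04 by edgeR). The vitamin K cycle enzymes Vkorc1 and Ggcx fell by 1.24 and 0.57 on the log2 scale, the cargo receptor Lman1 fell by 0.60, and Pros1, which encodes the anticoagulant protein S, fell by 0.59 (adjusted p = 0.0144, 0.0197, 0.00851 and 0.0133 by edgeR).

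In KPC4 19 coagulation genes were tested and 0 passed (edgeR quasi-likelihood), where 0% of all genes did. With the replicate block 0 passed, against 8.85% of all genes. Of the 19, Procr, F2r and Xkr8 had an unadjusted p under 0.05 (3 genes), as did 17.0% of all genes tested. The list had a median log2 fold change of -0.04. F2r, which encodes a thrombin receptor, measured 141, 193 and 162 CPM with Control-PSC-SU and 138, 98.4 and 88.1 CPM with Gem-PSC-SU, a log2 change of -0.62 (adjusted p = 0.215 by edgeR). Xkr8, a phospholipid scramblase, was at -0.85 (adjusted p = 0.245 by edgeR). Neither gene overlapped between the groups, and the same held for Procr and further genes of this list, as for 22.6% of all genes tested. Procr, which encodes the endothelial protein C receptor that works beside thrombomodulin, measured 39.0, 36.1 and 40.1 CPM with Control-PSC-SU and 43.0, 71.5 and 74.4 CPM with Gem-PSC-SU. Its log2 fold change was 0.71 ± 0.24 (SE) in KPC4 (adjusted p = 0.204 by edgeR) and -0.45 ± 0.23 (SE) in PSC4 (adjusted p = 0.137 by edgeR). In the interaction fit 2 of 17 coagulation genes passed, beside 9.85% of all genes, with Procr at -1.21 and Tgm2 at -1.87 (adjusted p = 0.0382 and 0.0477 by edgeR).

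**Figure D5:**
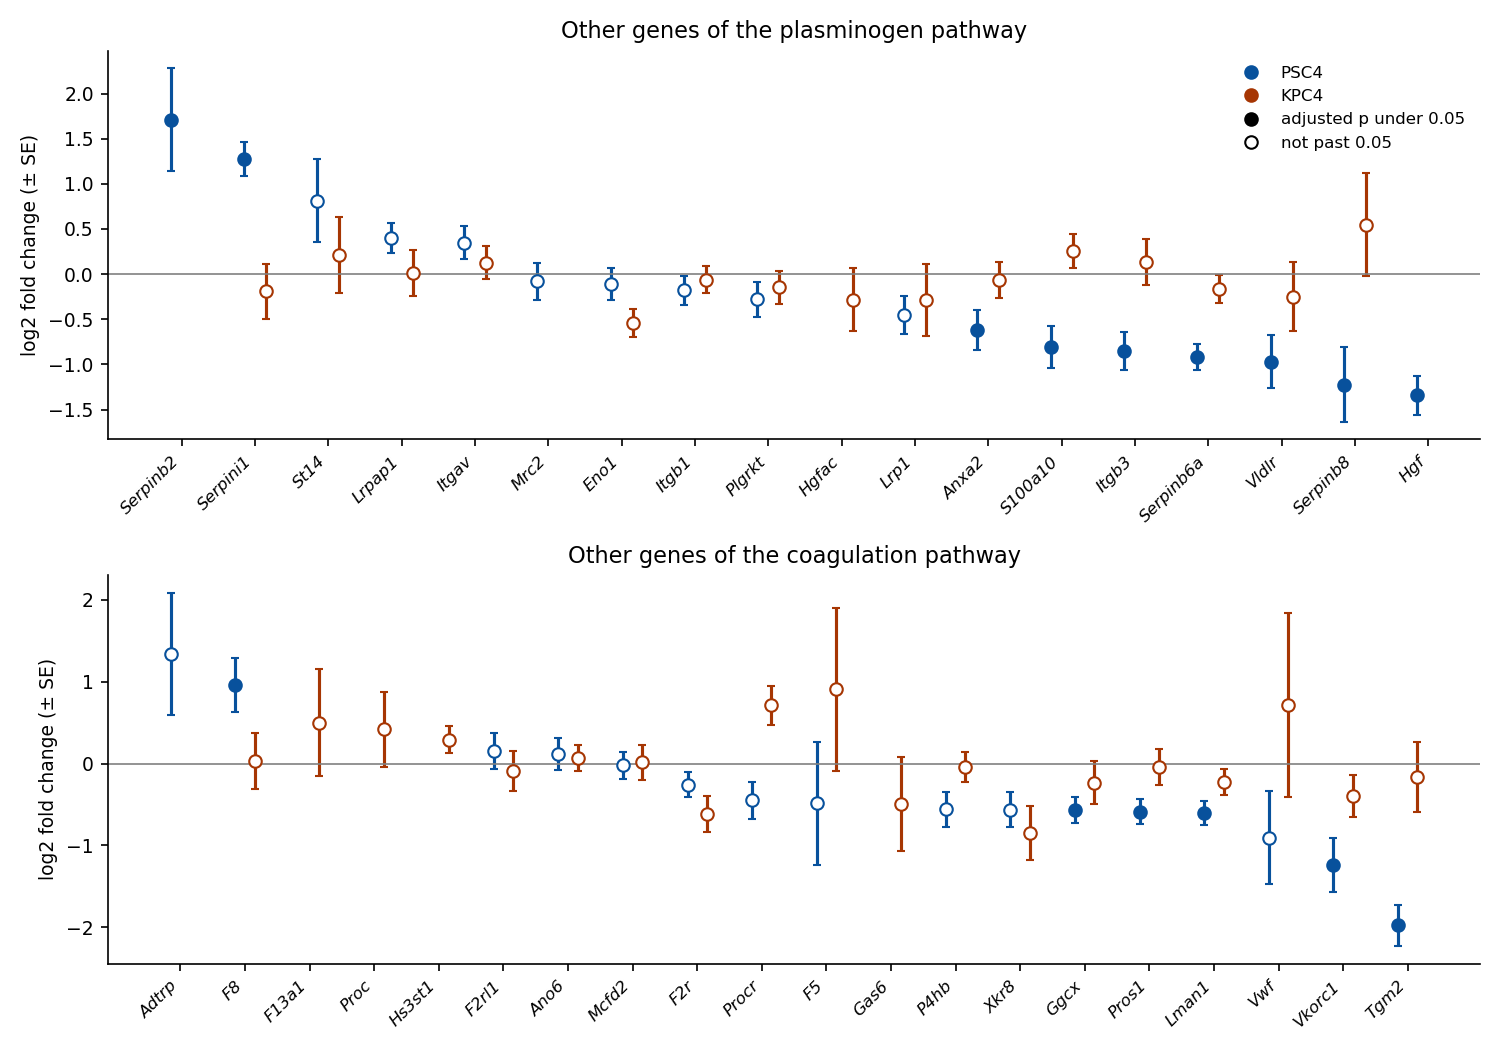
Log2 fold change of Gem against Control (y axis) with its standard error for the other genes of the plasminogen list (upper panel) and the coagulation list (lower panel) tested in at least 1 line (x axis); filled symbols passed an adjusted p of 0.05. In PSC4 Serpinb2 is highest at 1.71 and Tgm2 lowest at -1.98, and no KPC4 symbol is filled.

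The genes with the most similar pattern were sought among 11335 candidates (11336 for Serpine2) with a mean of at least 50 counts, by Pearson's r of log2 CPM over the 12 libraries, which share lines and replicate numbers. Each is the highest of many, so that r is a description. Over all 12 libraries Plaur was closest to Areg (r = 0.984), F3 to Mmp13 (r = 0.983), Plat to Dusp5 (r = 0.970) and Plau to Zswim4 (r = 0.979). Thbd was closest to A4galt (r = 0.994), Tfpi to Fut8 (r = 0.985) and Serpine2 to Ints7 (r = 0.954). After the mean of each line was subtracted, F3 was again closest to Mmp13 (r = 0.979), whereas Plaur and Plat were both closest to Znhit3 (r = 0.992 and 0.980) and Plau to Efnb2 (r = 0.988). By that measure Thbd was closest to Zbtb45 (r = 0.952), Tfpi to Kbtbd3 (r = 0.955) and Serpine2 to Bdnf (r = 0.856).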

How the data were processed

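RNA of 12 cultures (4 groups of 3) was sequenced. The authors deposited whole-number counts per gene and library, one table per line, and tables of their log2 fold change with p-value and adjusted p-value, named as DESeq2 output. Per the submitters' processing notes the tools were FastQC, Trim Galore 0.6.10, cutadapt 5.2, Salmon, R 4.5.1 and DESeq2, with build GRCm39. How whole counts were made from Salmon's estimates, the annotation and the strand setting are not given in the sources used here, so reads shared by overlapping or antisense genes cannot be told apart. Symbols came from GENCODE M21, matching 16329 of 16386 PSC4 and 15265 of 15309 KPC4 identifiers. The smallest row total was 0 and 11.

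Each line was fitted with edgeR 4.0.16 (R 4.3.3): filterByExpr, TMM, robust quasi-likelihood test, Benjamini-Hochberg adjustment over all genes, threshold 0.05. The interaction and the comparison of controls used one fit of the 12 libraries over genes in both tables. Printed CPM uses TMM factors over the 12 libraries (0.939 to 1.04). The fits were tested on simulated data, in which libraries were drawn independently. These held no effect of the replicate number, so they cannot decide between the KPC4 fits with and without the block. At these depths counting error is small beside replicate spread for the members except Tfpi2, Serpine2 and, in PSC4 with Gem-SU, Tfpi. The latter had 427 to 592 counts and a small spread (14.8 CPM ± 0.702, SD). Pairs of replicates differed by at least 32.0 in chi-square per degree of freedom, more than counting error alone gives. Each library was treated as a sample, although this spread does not show that libraries are independent.

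Members and lists were chosen with earlier results of these data known. One listed gene and the ratios that use it are not reported here. The named genes are all members, list genes that passed or that directly bind or inhibit a member, and the gene of highest r to each member. The pairing of KPC4 libraries comes from the values alone: libraries of one number deviated together, with correlations of 0.210 to 0.436, all above 0.1. Alternatives were DESeq2's size factors, other low-count filters, DESeq2 1.42.0, robust estimation off, the replicate block, other sets of libraries in the fit, and leaving out each library.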

Additional observations from a re-analysis of the deposited data

Results flagged for a closer look

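The response of F3 differed between the lines in a direct test, in which line and step of the transfer cannot be told apart. PSC4 minus KPC4 was -2.51 on the log2 scale (edgeR quasi-likelihood interaction over 12 libraries, adjusted p = 0.00707). Values were lower in 3 of 3 Gem-SU libraries than in all PSC4 controls, where 56.7% of all genes had groups without overlap. They were higher in 3 of 3 Gem-PSC-SU libraries than in all KPC4 controls, where 22.6% of all genes had such groups. Within KPC4 alone F3 did not pass without the block (adjusted p = 0.120 by edgeR). Its PSC4 call held in 3 of 6 fits that left out 1 library.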

How the results depend on the processing

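In PSC4 the directions of all 7 tested members held under every alternative run, and the count of 6 called members stayed at 6 except when a library was left out (4 to 6; genes called 4061 to 6826). In KPC4 the count of 0 genes moved to 823 under DESeq2, 1171 with the replicate block, 610 in one fit over all 12 libraries and 2184 under DESeq2 with the block, an alternative chosen after seeing the data. The members called were then 2, 3, 2 and 3. Leaving out 1 KPC4 library gave 0 to 1129 genes and 0 to 3 members, the highest of both without Gem-PSC-SU replicate 1. Genes with a response that differed between lines moved from 1343 to 2148 under DESeq2 and 2988 with the replicate block, and lay between 610 and 1993 when 1 library was left out. Members among them moved from 1 to 2, 4 and 1 to 2. With the block these were F3, Plat (edgeR adjusted p = 0.0143), Plaur (edgeR adjusted p = 0.0230) and Thbd (edgeR adjusted p = 0.0119), although PSC4 numbers do not pair its libraries (correlations of -0.05 to 0.43). The log2 fold change of Serpine2 in KPC4 reversed to -0.00208 under DESeq2 with the block, to -0.07 when Control-PSC-SU replicate 3 was left out and to -0.43 when Gem-PSC-SU replicate 2 was, within a range of -0.43 to 0.54 over the 6 such fits. In the comparison of controls Serpine2 lost its call with the replicate block (edgeR quasi-likelihood, adjusted p = 0.0540). The cause of these shifts was not tested, except that fits with fewer libraries have fewer degrees of freedom.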
